A study of Homo sapiens with 24 samples.

Results

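NRF2, the transcription factor encoded by NFE2L2, drives the genes that cells use against oxidants and electrophiles, and the mRNA of NFE2L2 and of 8 of its well-known targets was followed here while Met was replaced by Hcy. The set held NFE2L2, GCLC, GCLM, SRXN1, TXNRD1, NQO1, HMOX1, ME1, and OSGIN1, taken by gene symbol from the deposited count table. All 9 genes were in the table of 26641 gene entries, and all 9 were among the 14739 genes that passed the filter on low counts. RNA was sequenced from MDA-MB-468 cells (MB468), a metastatic breast epithelial line that needs Met to proliferate, and from MDA-MB-468res-R8 (MB468res-R8), a Met-independent derivative. Both lines were grown in DMEM with dialyzed FBS, vitamin B12, glutamine, and cysteine. The 0 h cells were in Met+ medium (100 µM Met). The others had been in Met-Hcy+ medium, with 370 µM DL-Hcy in place of Met, for 0.5, 2, or 12 h. Each of the 8 groups had 3 libraries, 24 in all. MB468res-R8 is a single clone obtained from MB468 by prolonged culture in Hcy medium, so what distinguishes it from MB468 cannot be told apart from what distinguishes any clone from its parent. Cells kept in Met+ medium for 0.5, 2, or 12 h are not analysed here, so the effect of Hcy for Met cannot be told apart from that of the medium change itself or of time in culture.

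In unstressed cells the adaptor KEAP1 binds NRF2 and delivers it to the CUL3 ubiquitin ligase for degradation. Oxidants and electrophiles modify cysteines of KEAP1, NRF2 then accumulates, pairs with a small MAF protein (MAFF, MAFG, or MAFK), and binds antioxidant response elements near its targets, where BACH1 competes with it. NRF2 is controlled mainly as a protein, and neither NRF2 protein nor its activity was measured here. Hcy carries a free thiol and feeds both the remethylation to Met and the synthesis of cysteine, the limiting amino acid of glutathione.

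The 9 genes sit on 7 chromosomes in GRCh38. NFE2L2 lies on chromosome 2 (177218667 to 177392756), GCLC and ME1 on chromosome 6 (53497341 to 53616970 and 83210402 to 83431051), and GCLM on chromosome 1 (93885199 to 93909456). SRXN1 lies on chromosome 20 (646615 to 653200), TXNRD1 on chromosome 12 (104215779 to 104350307), and HMOX1 on chromosome 22 (35380361 to 35394214). NQO1 and OSGIN1 both lie on chromosome 16 (69706996 to 69726668 and 83931311 to 83966332). TXNRD1, HMOX1, and OSGIN1 are on the plus strand and the others on the minus strand. In the GENCODE annotation 90.7% of the exon length of SRXN1 is shared with another protein-coding gene on the same strand, ENSG00000270299. Also on the same strand, OSGIN1 shares 8.22% with the protein-coding MLYCD, and NFE2L2 13.6% and GCLC 6.14% with noncoding RNAs. The kit did not keep strand, and 23.4% of the exon length of NFE2L2 is shared with HNRNPA3, and 19.4% of that of NQO1 with a noncoding RNA, both on the opposite strand. The levels of these genes are uncertain to the extent that the authors' counting assigned the shared reads to either partner.

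The core of the antioxidant response element, TGACNNNGC read on both strands, was looked for in RefSeq promoter windows (GRCh38.p14) that run from 250 bases before to 50 bases after a transcription start. Windows were found for 8 of the 9 genes, 10 windows in all, and HMOX1 had none, so its promoter was not searched. Elements outside the windows were not looked for, so a gene without a match here may still have one further away. The core occurred before the start in 4 windows of 3 genes, GCLM, ME1, and TXNRD1, the last with a match at each of its starts. ME1 had a further match after its start and TXNRD1 a further match close before its first start, which are not shown. Over all 35116 windows 13.3% held the core, and 10.9% held it before the start. The matches are shown because they are the places in these promoters that spell the core, with the 9 bases of the core in capitals and 10 bases on either side, each written 5′ to 3′ on the strand of the gene.
GCLM, chr1:93909446-93909474, minus strand, core on the opposite strand: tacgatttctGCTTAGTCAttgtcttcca
ME1, chr6:83431170-83431198, minus strand, core on the gene's strand: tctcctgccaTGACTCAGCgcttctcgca
TXNRD1, first start, chr12:104215670-104215698, plus strand, core on the gene's strand: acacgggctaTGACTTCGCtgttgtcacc
TXNRD1, second start, chr12:104286920-104286948, plus strand, core on the opposite strand: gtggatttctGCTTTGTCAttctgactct
The core in ME1 also holds the AP-1 site TGACTCA, as it does in 197 windows over the genome. With TMM scaling the genes in whose windows the core occurred did not move together, as the values that follow show. In MB468 at 12 h TXNRD1 was higher, and GCLM and ME1 were lower, than at 0 h.

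Total counts per library ranged from 11745553 to 36496655 (median 20503827), with 0.201 to 0.303% on the added spike-in RNAs. Values are given as normalized counts (raw counts scaled by edgeR's TMM factors to the mean library), fold changes are on the log2 scale with their SE, and a gene is called when its p from the quasi-likelihood test of edgeR, adjusted over all 14739 genes by the method of Benjamini and Hochberg, is under 0.05. Nothing in the labels says whether replicates were separate cultures, so the p-values measure the spread between these libraries, which may be technical. The 5 epithelial markers summed to between 2584 and 6184 CPM in every library, against 2.88 to 10.1 CPM for leukocyte and 0.585 to 5.89 CPM for endothelial markers. Fibroblast markers summed to 14.4 to 73.1 CPM, nearly all of it COL1A1, while COL1A2 was at 0 in 22 libraries and LUM in 11. COL1A1 was lower at 12 h than at 0 h in both lines (−1.20 ± 0.09 in MB468 and −0.95 ± 0.08 in MB468res-R8), while the 3 endothelial markers were all called lower at 0.5 h in MB468 (median −2.09), 2 of them at 0.5 h (−1.06) and 2 at 12 h (−2.67) in MB468res-R8, and 4 of the 5 epithelial markers were called lower at 12 h in MB468 (−0.41). The part of these markers in the results was not tested. MB468 replicate 2 at 2 h stood apart with 1580 CPM of small noncoding RNA, against 6.37 to 28.6 CPM in the other 23 libraries, and without it the same number of the 9 genes was called at 2 h against 0 h, while 5 rather than 7 were called at 12 h against 2 h. With spike-in totals in place of TMM the median over all genes of the log2 fold change stood at −0.20 at 0.5 h, −0.42 at 2 h, and −0.23 at 12 h in MB468, and at −0.31 between the lines at 0 h, against −0.01, 0.00, −0.02, and −0.01 with TMM. In that order, the share of calls that were higher went from 47.7 to 14.0%, from 51.7 to 2.52%, from 49.0 to 30.0%, and from 47.22 to 14.97%. Every change is therefore relative to the bulk of the other genes. In bulk RNA a lower level in every cell and a level lost from some of the cells cannot be told apart.

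At 0 h, per kb of the canonical transcript, TXNRD1 had the highest level of the 9 genes in MB468 with 5367 ± 314 normalized counts (SD, n = 3), followed by NQO1 with 3805 ± 280 and NFE2L2 with 2167 ± 63.3. HMOX1 (1641 ± 67.0), SRXN1 (1231 ± 62.9), and ME1 (886 ± 37.5) were in between. GCLM (507 ± 17.8), GCLC (505 ± 19.8), and OSGIN1 (394 ± 27.6) were the lowest per kb. The fewest raw reads in any library were 245 for OSGIN1 and 303 for HMOX1, and the most were 38238 for TXNRD1.

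Before the switch to Hcy medium, MB468res-R8 had less of 5 of the 9 transcripts than MB468, and more of none. HMOX1, which breaks down heme, had the largest difference. MB468 held 2546, 2449, and 2657 normalized counts of it in replicates 1 to 3, and MB468res-R8 held 1287, 1486, and 1208, so the libraries did not overlap. The log2 difference was −0.94 ± 0.09 (SE, adjusted p = 5.49e-08). TXNRD1, the cytosolic thioredoxin reductase, had 19417, 20916, and 21820 in MB468 and 12988, 12971, and 13625 in MB468res-R8 (−0.65 ± 0.04, adjusted p = 1.69e-15). SRXN1, which repairs overoxidized peroxiredoxins, was lower by a log2 difference of −0.43 ± 0.06, GCLM by −0.35 ± 0.05, and NQO1, a quinone reductase, by −0.25 ± 0.04. Of all genes 53.6% were called in this comparison and 28.3% were called lower. NFE2L2 itself was at 5301 ± 155 in MB468 and 5264 ± 138 in MB468res-R8, with overlapping libraries and a difference of −0.01 (95% CI −0.09 to 0.07). GCLC and ME1 also overlapped. OSGIN1 was at 758 ± 53.1 and 867 ± 95.8 (0.20 ± 0.09, adjusted p = 0.0563), and was called higher in MB468res-R8 with DESeq2's size factors (adjusted p = 0.0456), while spike-in totals turned it to −0.10 (adjusted p = 0.549). With spike-in totals NFE2L2 (−0.30, adjusted p = 0.0362) and ME1 (−0.34, adjusted p = 0.0195) were called lower as well, 7 of the 9 genes in all. That scaling called 7637 of all 14739 genes between the lines at 0 h, with 14.97% of these calls as higher.

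**Figure D1:**
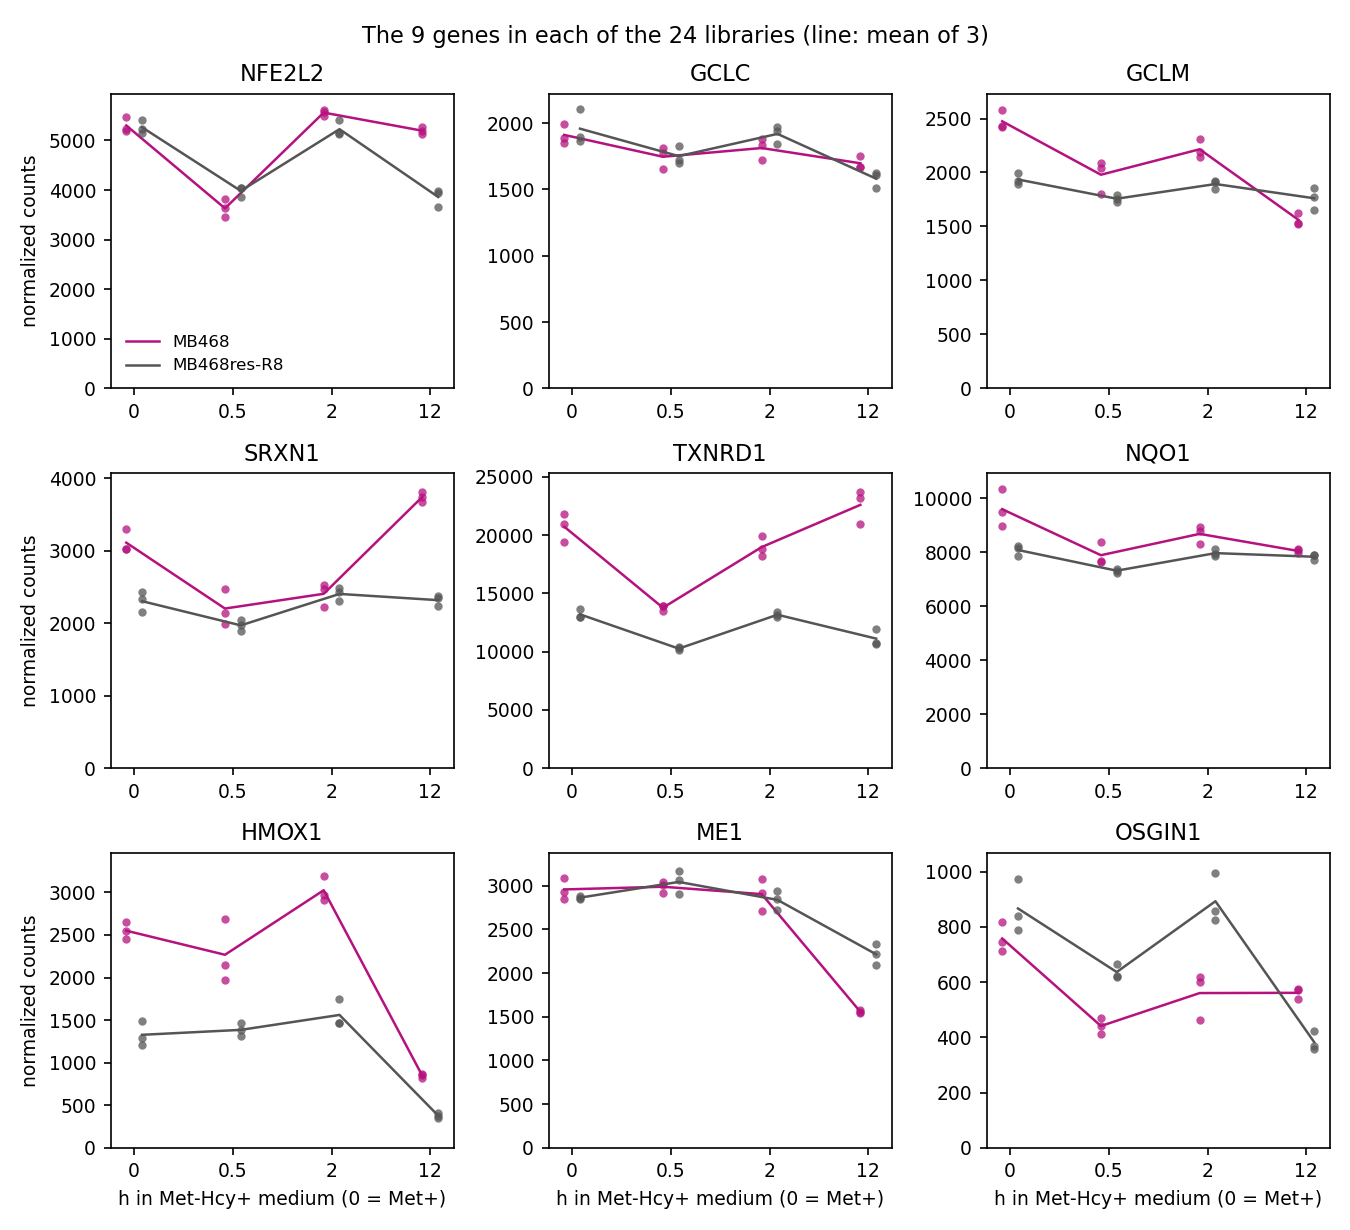
Normalized counts (y axis, starting at 0, with its own range for each gene) of the 9 genes against hours in Met-Hcy+ medium (x axis, categories, 0 h in Met+ medium), with a point for each library and lines through the means of 3. With TMM scaling most genes dip at 0.5 h in both lines, and none is called at 2 h in MB468res-R8 while 5 are still lower in MB468. With spike-in totals 8 are lower in MB468 at 2 h, where 9509 of all 14739 genes are called. HMOX1 and ME1 fall at 12 h. SRXN1 and TXNRD1, already lower in MB468res-R8 at 0 h, stand further apart between the lines at 12 h with TMM scaling.

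At 0.5 h in Hcy medium, 7 of the 9 genes had fallen in MB468 and 7 had fallen in MB468res-R8, and none had risen in either line. With spike-in totals 8 were called lower in MB468 and 2, NFE2L2 and OSGIN1, in MB468res-R8. The genes whose calls were lost in MB468res-R8 kept values below 0. These were TXNRD1 (−0.32, against −0.36 with TMM), SRXN1 (−0.19, −0.23), GCLC (−0.12, −0.16), GCLM (−0.10, −0.14), and NQO1 (−0.10, −0.14). That scaling called 3287 of all 14739 genes in MB468, with 14.0% of these calls as higher. In MB468res-R8 it called 2022, with 59% of them as higher. With TMM scaling 34.1% of all genes were called in MB468, 17.8% as lower, and 33.7% in MB468res-R8, 16.2% as lower. The median of the 9 genes was −0.31 in MB468 and −0.16 in MB468res-R8, against medians over all genes of −0.01 and −0.00108. NFE2L2 went from 5197, 5228, and 5479 normalized counts to 3810, 3636, and 3446 in MB468, and from 5235, 5144, and 5414 to 4037, 3861, and 4049 in MB468res-R8. Every library at 0.5 h lay below every library at 0 h of its line. The log2 fold changes of this regulator were −0.54 ± 0.04 (adjusted p = 4.39e-14) and −0.40 ± 0.04 (adjusted p = 1.03e-10).

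Its targets fell by different amounts at the same time. OSGIN1, an oxidative stress-induced growth inhibitor, fell the most, from 712, 746, and 816 to 440, 412, and 472 in MB468 (−0.78 ± 0.09, adjusted p = 1.49e-08), and from 789, 974, and 838 to 620, 667, and 623 in MB468res-R8 (−0.44 ± 0.09, adjusted p = 0.000115). TXNRD1 fell to 13893, 13491, and 13902 in MB468 (−0.59 ± 0.04, adjusted p = 9.65e-14) and to 10373, 10275, and 10119 in MB468res-R8 (−0.36 ± 0.05, adjusted p = 2.06e-08). SRXN1 fell by 0.51 ± 0.06 on the log2 scale in MB468 and by 0.23 ± 0.06 in MB468res-R8. NQO1 fell by 0.28 ± 0.04 and by 0.14 ± 0.04, in the same order. The subunits of glutamate-cysteine ligase, the first enzyme of glutathione synthesis, fell as well. The modifier GCLM fell by 0.31 ± 0.05 and 0.14 ± 0.05 and the catalytic subunit GCLC by 0.13 ± 0.05 and 0.16 ± 0.05. The call of GCLC in MB468 was lost without any of 5 of the 6 libraries (−0.15 to −0.09), that of GCLC in MB468res-R8 without 0 h replicate 2 (−0.11) or 0.5 h replicate 1 (−0.15), and that of GCLM in MB468res-R8 without 0 h replicate 3, 0.5 h replicate 1, or 0.5 h replicate 3 (−0.12 to −0.14).

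ME1 and HMOX1 did not pass the test at 0.5 h. ME1, the cytosolic malic enzyme that makes NADPH, had a log2 fold change of 0.02 (95% CI −0.08 to 0.11) in MB468 and of 0.09 (−0.01 to 0.18) in MB468res-R8. HMOX1 had −0.18 (−0.38 to 0.01) in MB468, where replicate 3 at 0.5 h held 2690 normalized counts and the others 2144 and 1968. Without that library the value was −0.30 (adjusted p = 0.00228). In MB468res-R8 it was 0.06 (−0.15 to 0.26).

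With TMM scaling none of the 9 genes was called at 2 h in MB468res-R8, and 5 were still lower in MB468. With spike-in totals none was called in MB468res-R8 either, and 8 were lower in MB468. That scaling called 180 of all 14739 genes in MB468res-R8 at 2 h. In MB468 it called 9509, with 2.52% of these calls as higher. In MB468res-R8 none of the 9 genes was called at 2 h against 0 h with edgeR or with DESeq2, where 4.34% of all genes were called, and 1 gene, HMOX1, had an unadjusted p under 0.05 (0.24 ± 0.10, adjusted p = 0.233). In MB468 16.5% of all genes were called with TMM scaling, 7.95% as lower. OSGIN1 was at 619, 599, and 463 (−0.44 ± 0.09, adjusted p = 0.000648) and SRXN1 at 2473, 2523, and 2222 (−0.37 ± 0.06, adjusted p = 6.16e-06), both below every library at 0 h. The other 3 falls were small, with −0.16 for GCLM (adjusted p = 0.02), −0.14 for NQO1 (adjusted p = 0.0129), and −0.13 for TXNRD1 (adjusted p = 0.0448). Without 0 h replicate 3 or without 2 h replicate 1 these 3 calls were lost and 2 of the 9 genes were called. Without 2 h replicate 3 those of GCLM (−0.15) and TXNRD1 (−0.12) were lost, and without 0 h replicate 2 that of TXNRD1 alone (−0.11). NFE2L2 was at 5561 ± 59.0, above all libraries at 0 h yet not called (0.07 ± 0.04, adjusted p = 0.276), and with spike-in totals it was called lower (−0.34). HMOX1 stood at 3188, 2971, and 2916, all above the 0 h libraries, with a log2 fold change of 0.25 ± 0.09 that missed the threshold (adjusted p = 0.0735) and passed it with DESeq2's Wald test (adjusted p = 0.0249), while spike-in totals turned it to −0.17 (adjusted p = 0.247).

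**Figure D2:**
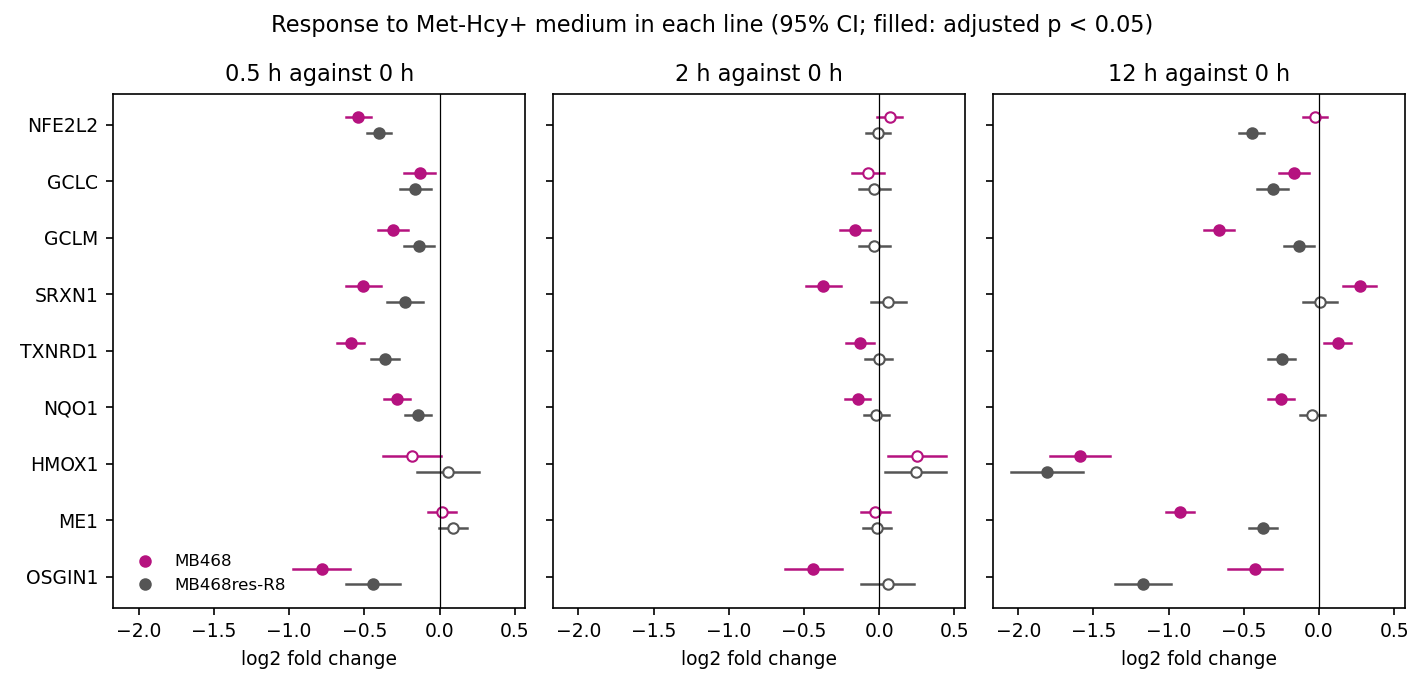
Log2 fold changes against 0 h (x axis) at 0.5, 2, and 12 h for the 9 genes (y axis) in both lines, with bars for the 95% CI, and filled points where the adjusted p is under 0.05. With TMM scaling all filled points at 0.5 h lie left of 0, none is filled in MB468res-R8 at 2 h, and at 12 h the points spread from −1.81 for HMOX1 in MB468res-R8 to 0.27 for SRXN1 in MB468.

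At 12 h, with TMM scaling, the called genes went in both directions in MB468 and only down in MB468res-R8. In MB468, 6 were lower and 2 higher than at 0 h, when 70.6% of all genes were called, 36% as lower. In MB468res-R8, 7 were lower and none higher, with 61.7% of all genes called and 29.7% called lower. With spike-in totals 4 were lower in MB468res-R8. The calls of GCLM (−0.13, adjusted p = 0.45), TXNRD1 (−0.24, adjusted p = 0.119), and GCLC (−0.30, adjusted p = 0.0537) were lost. In that order their values with TMM were −0.14, −0.25, and −0.31, so the p changed more than the values. Most genes of any kind were thus called at this time. Of all genes 34.6% were called higher in MB468. Their median log2 fold change was −0.25 in MB468 and −0.31 in MB468res-R8, against −0.02 and 0.00 over all genes.

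HMOX1 had the largest fall in each line. It went to 864, 816, and 853 normalized counts in MB468, a log2 fold change of −1.59 ± 0.10 (adjusted p = 8.06e-12), and to 410, 349, and 373 in MB468res-R8, a change of −1.81 ± 0.11 (adjusted p = 2.68e-11). These are levels 3.01-fold and 3.50-fold below 0 h. Measured from 2 h the fall was 3.58-fold in MB468 and 4.15-fold in MB468res-R8. ME1 came next in MB468, where it fell from 2848, 2932, and 3094 to 1550, 1572, and 1547 (−0.92 ± 0.05, adjusted p = 2.45e-20). In MB468res-R8 it fell from 2843, 2864, and 2884 to 2090, 2337, and 2218 (−0.37 ± 0.05, adjusted p = 7.43e-09). With TMM scaling neither line showed a called change of ME1 at 0.5 or 2 h, while with spike-in totals ME1 was already lower in MB468 at 2 h (−0.44, adjusted p = 0.00287).

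The ligase subunits fell unequally. GCLM went from 2428, 2420, and 2574 to 1527, 1625, and 1534 in MB468 (−0.66 ± 0.05, adjusted p = 2.07e-15), and from 1894, 1920, and 1992 to 1654, 1775, and 1855 in MB468res-R8 (−0.14 ± 0.05, adjusted p = 0.0178, lost without 12 h replicate 1 at −0.11). GCLC fell by 0.17 ± 0.05 on the log2 scale in MB468 and by 0.31 ± 0.05 in MB468res-R8. GCLM was thus the subunit with the larger fall in MB468 and GCLC that in MB468res-R8.

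NFE2L2 was lower in MB468res-R8 and not in MB468 at 12 h. In MB468 it stood at 5266, 5197, and 5123, overlapping the 0 h libraries (−0.03, 95% CI −0.11 to 0.05), and in MB468res-R8 at 3666, 3970, and 3942, below every library at 0 h (−0.45 ± 0.04, adjusted p = 1.8e-12). OSGIN1 fell in both lines, to 574, 538, and 572 in MB468 (−0.42 ± 0.09, adjusted p = 5.4e-05) and to 424, 357, and 368 in MB468res-R8 (−1.17 ± 0.09, adjusted p = 2.31e-13). NQO1 fell by 0.25 ± 0.04 in MB468 and had −0.04 (−0.13 to 0.04) in MB468res-R8.

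SRXN1 and TXNRD1 were the genes of the set that rose, and they did so in MB468. SRXN1 reached 3817, 3673, and 3744 in MB468 at 12 h, above every library at 0 h (0.27 ± 0.05, adjusted p = 3.83e-05), while in MB468res-R8 it stayed at 2376, 2343, and 2235 (0.01, 95% CI −0.11 to 0.12). TXNRD1 was at 23155, 23656, and 20966 in MB468, overlapping the 0 h libraries (0.13 ± 0.04, adjusted p = 0.0121), and at 10707, 11941, and 10688 in MB468res-R8, below all of them (−0.25 ± 0.05, adjusted p = 9.78e-06). Both rises depend on the scaling, since with spike-in totals SRXN1 was at 0.06 (adjusted p = 0.731) and TXNRD1 reversed to −0.08. The rise of TXNRD1 was also lost without 0 h replicate 1 (0.10, adjusted p = 0.0595). Measured from 2 h, with 69.9% of all genes called in MB468 (33.7% higher and 36.1% lower), SRXN1 rose by a log2 fold change of 0.64 ± 0.06 (adjusted p = 1.67e-12) and TXNRD1 by 0.25 ± 0.04. Of the other genes 5 fell between 2 and 12 h in MB468. The falls of NFE2L2 (−0.10) and NQO1 (−0.11) over that interval reversed to 0.11 and 0.09 with spike-in totals, and were lost without any of the 6 libraries for NFE2L2 and without 5 of the 6 for NQO1. In MB468res-R8, 6 genes fell between 2 and 12 h, where 62.9% of all genes were called and 30.3% called lower, and none rose. With spike-in totals 4 were called lower, where 6504 of all 14739 genes were called, 53.12% of them as higher. The calls of GCLC (−0.23, adjusted p = 0.147) and TXNRD1 (−0.19, adjusted p = 0.22) were lost, with values of −0.28 and −0.24 under TMM.

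The lines were then compared directly, by subtracting the MB468 response from the MB468res-R8 response and testing the result. At 0.5 h 8 of the 9 differences were above 0 (median 0.17, against 0.01 over all genes). They all came from the same 12 libraries, so their signs are not independent. The difference of TXNRD1 was the 1 called (0.23 ± 0.06, adjusted p = 0.0382), where 3.01% of all genes were called and 1.48% called higher. It was lost without 10 of the 12 libraries in turn (0.18 to 0.24) and with DESeq2's size factors (adjusted p = 0.0639) or spike-in totals (adjusted p = 0.279). At 2 h 5.09% of all genes were called, 2.25% as higher, and SRXN1 (0.43 ± 0.08, adjusted p = 0.000397) and OSGIN1 (0.49 ± 0.13, adjusted p = 0.0133) differed, both of them still low in MB468 and back at the 0 h level in MB468res-R8. The difference for OSGIN1 was lost without MB468 2 h replicate 3 (0.36), MB468res-R8 0 h replicate 1 (0.42), or MB468res-R8 2 h replicate 2 (0.39).

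At 12 h the responses differed for 7 of the 9 genes, where 56.8% of all genes were called, 28.7% as higher and 28.2% as lower. ME1 (0.55 ± 0.07, adjusted p = 2.76e-09), GCLM (0.53 ± 0.07, adjusted p = 2.23e-08), and NQO1 (0.21 ± 0.06, adjusted p = 0.00263) fell more in MB468. NQO1 was lost without MB468res-R8 0 h replicate 1 (0.14). OSGIN1 (−0.75 ± 0.13, adjusted p = 4.86e-06), NFE2L2 (−0.42 ± 0.06, adjusted p = 3.74e-08), TXNRD1 (−0.37 ± 0.06, adjusted p = 3.54e-06), and SRXN1 (−0.26 ± 0.08, adjusted p = 0.00445) were shifted down in MB468res-R8 relative to MB468. With spike-in totals, which put the median over all genes at 0.20 here, ME1, GCLM, NQO1, and OSGIN1 were still called, and the differences for NFE2L2 (−0.20), TXNRD1 (−0.16), and SRXN1 (−0.05) were not. HMOX1 had a difference of −0.22 (95% CI −0.53 to 0.09) and GCLC of −0.14 (−0.28 to 0.00), and neither was called.

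**Figure D3:**
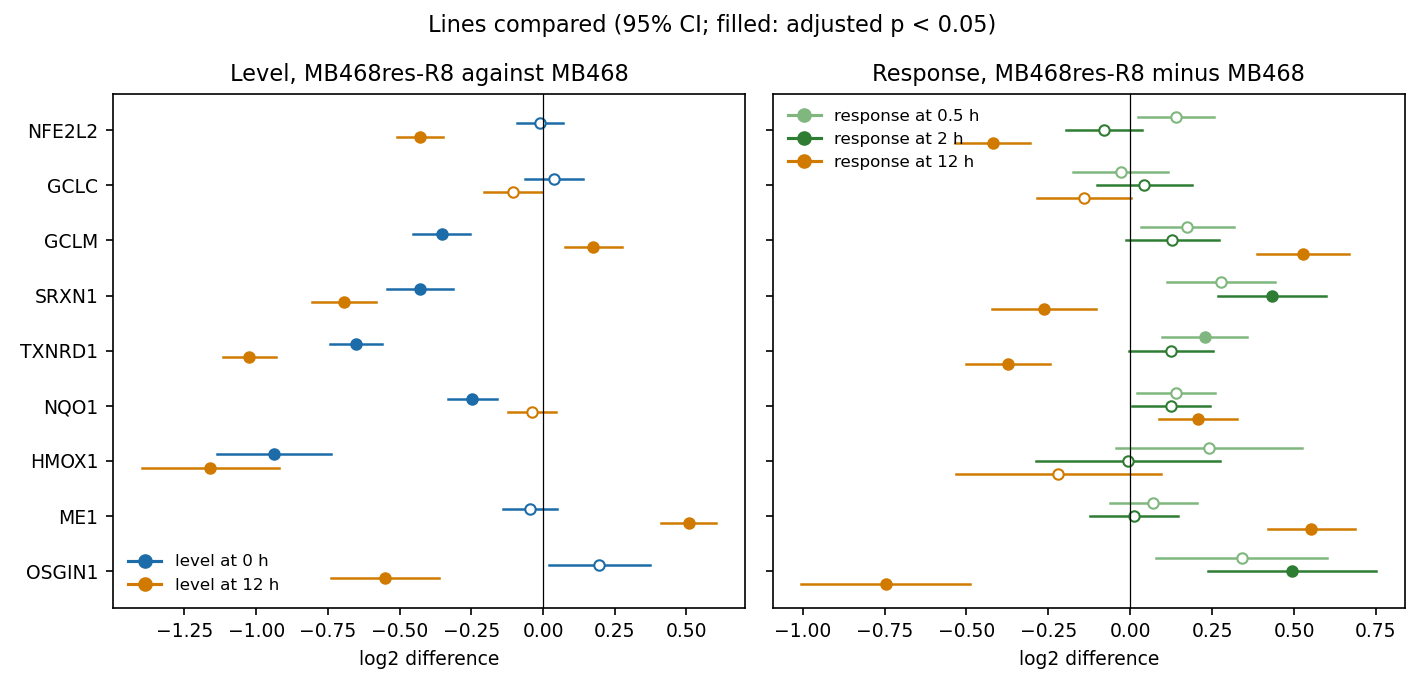
Log2 difference between the lines (x axis) for the 9 genes (y axis), as levels at 0 and 12 h in the left panel and as responses to Hcy medium in the right panel, with 95% CI and filled points at an adjusted p under 0.05. At 12 h GCLM, NQO1, and ME1 lie right of 0 and NFE2L2, SRXN1, TXNRD1, and OSGIN1 left of it in the right panel.

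In level, the lines stood further apart at 12 h than at 0 h for some of these genes and closer for others. At 12 h 5 genes were lower and 2 higher in MB468res-R8 than in MB468, when 73.1% of all genes were called, 35.6% as higher and 37.5% as lower. TXNRD1 was 2.03-fold lower (−1.02 ± 0.05, adjusted p = 3.77e-22) and HMOX1 2.23-fold lower (−1.16 ± 0.11, adjusted p = 1.56e-08). SRXN1 was lower by −0.69 ± 0.06, OSGIN1 by −0.55 ± 0.09, and NFE2L2 by −0.43 ± 0.04. ME1 was higher in MB468res-R8 (0.51 ± 0.05, adjusted p = 1.93e-12), and so was GCLM (0.18 ± 0.05, adjusted p = 0.00175, lost without MB468res-R8 12 h replicate 3 at 0.105 and with spike-in totals at 0.09, adjusted p = 0.553), which had been lower at 0 h. NQO1, lower at 0 h, was at −0.04 (95% CI −0.12 to 0.04) at 12 h.

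Over the 8 groups the range from the lowest to the highest mean was widest for HMOX1, 8.02-fold, from 377 ± 30.6 in MB468res-R8 at 12 h to 3025 ± 144 in MB468 at 2 h. For TXNRD1 it was 2.20-fold, and the levels in MB468res-R8 at all times lay below those in MB468 at 0, 2, and 12 h. NFE2L2 varied 1.53-fold and fell into an upper tier of 5 groups and a lower tier of 3. The upper tier ran from 5195 to 5561 and held both lines at 0 and 2 h and MB468 at 12 h. The lower tier ran from 3630 to 3983 and held both lines at 0.5 h and MB468res-R8 at 12 h. Within the upper tier only the first 2, MB468 at 2 h and at 0 h, did not overlap as neighbors, and within the lower tier neighbors overlapped. The narrowest ranges were those of GCLC (1.24-fold) and NQO1 (1.31-fold).

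Described over the 24 libraries, which share lines and times, SRXN1 and TXNRD1 ran closest together among the 9 genes (Pearson r = 0.84 of log2 CPM), followed by GCLC and OSGIN1 (0.82). SRXN1 and ME1 ran in opposite directions (r = −0.67). Over the 12 libraries of each line, HMOX1 and ME1 had r = 0.95 in MB468 and 0.91 in MB468res-R8. NFE2L2 followed TXNRD1 within each line (0.87 and 0.91). Outside the set, the genes most like HMOX1 among the 9515 genes with at least 10 CPM were SREBF2 (0.99) and SLC4A11 (0.98), those most like ME1 were ACSL1 (0.99) and IVNS1ABP (0.98), and those most like GCLM were RAI14 (0.91) and HMGCS1 (0.90). SREBF2 encodes a transcription factor of sterol synthesis, and HMGCS1 an enzyme of it. NFE2L2 was most like SGMS2 (0.95) and PHLDA1 (0.95), TXNRD1 like NCOA5 (0.96) and SNX11 (0.96), and SRXN1 like EXOC3 (0.95) and ZNF584 (0.94). OSGIN1 was most like ATP2C2 (0.93) and CYP1A1 (0.90), NQO1 like KCTD10 (0.88) and PIM2 (0.86), and GCLC like TACC2 (0.87) and SH3PXD2B (0.86). All genes share the libraries' depth and scaling.

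Among the 12 listed regulators and partners of NRF2, all of them tested, 2 were higher and 5 lower in MB468 at 0.5 h (median −0.09) and 3 higher and 4 lower in MB468res-R8 (−0.01), against 34.1 and 33.7% of all genes called in either direction. MAFK, a small MAF partner, fell the most in both, by 1.05 ± 0.08 on the log2 scale in MB468 and by 1.23 ± 0.07 in MB468res-R8. KEAP1, the inhibitor of NRF2, fell in MB468 (−0.34, adjusted p = 1.95e-08) and had −0.01 in MB468res-R8 (adjusted p = 0.895), a difference between the lines of 0.33 ± 0.06 (adjusted p = 0.00033). At 12 h, when 70.6% of all genes were called in MB468 and 61.7% in MB468res-R8, 6 were higher and 5 lower in MB468 (median 0.12), with the largest rise for NFE2L3, a relative of NFE2L2 (0.80 ± 0.06), and a rise of KEAP1 (0.46, adjusted p = 6.09e-13). In MB468res-R8 4 were higher and 6 lower (−0.10), and MAFF had the largest fall, from 4213 ± 383 to 535 ± 3.77 normalized counts (−2.98 ± 0.11, adjusted p = 1.44e-14). CUL3, the ligase scaffold, had the largest rise there (0.51 ± 0.04). Between the lines 9 of the 12 responses at 12 h were called lower in MB468res-R8 and 2 higher (median −0.36, against −0.01 over all genes, of which 28.2% were called lower and 28.7% higher), led by MAFF (−2.22 ± 0.14).

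The other genes of thiol defense were mostly lower at 12 h in MB468, while in MB468res-R8 this held for the glutathione list and not for the thioredoxin list. Of the 12 genes of the thioredoxin and peroxiredoxin system outside the set, 10 were lower at 12 h and none higher in MB468 (median −0.48), where 36% of all genes were called lower. In MB468res-R8 2 were lower and 2 higher (median 0.01), with PRDX5, a peroxiredoxin, at −0.49 ± 0.05 and TXN, thioredoxin itself, at 0.27 ± 0.05, where 61.7% of all genes were called and 29.7% called lower. The responses of 9 of the 12 were called as higher in MB468res-R8 than in MB468, against 28.7% of all genes, and none as lower. TXNRD1 and SRXN1, which serve the same system, had the opposite sign in this test with TMM scaling and were not called with spike-in totals. Of the 16 genes of glutathione supply and use, 12 were lower and 3 higher in MB468 at 12 h (median −0.63), and 12 were lower and 1 higher in MB468res-R8 (median −0.50), read against the same 36 and 29.7% of all genes called lower. GPX2 and OPLAH, among those lower in MB468, had means of only 0.51 and 0.34 CPM. CHAC1, which degrades glutathione, rose in MB468 from 124 (114 to 132 over its libraries) to 1370 ± 222 normalized counts at 0.5 h and to 2575 ± 15.3 at 12 h (4.37 ± 0.10, adjusted p = 1.97e-29). In MB468res-R8 it rose from 231 ± 9.54 to 968 ± 63.3 at 0.5 h and was at 185 ± 2.87 at 12 h.

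The list of NADPH supply beside ME1 held 10 genes, not all of which make NADPH themselves. Of these, 9 were lower in MB468 at 12 h (median −0.67) and 7 lower and 1 higher in MB468res-R8 (median −0.35). For this and the next 3 lists the shares of all genes called lower at 12 h were 36% in MB468 and 29.7% in MB468res-R8. The largest falls were those of the isocitrate dehydrogenases, IDH2 in MB468 (−1.23 ± 0.05) and IDH1 in MB468res-R8 (−0.70 ± 0.04). As with ME1, the responses of 8 of the 10 were higher in MB468res-R8 than in MB468, against 28.7% of all genes, and none lower (median 0.50). Of 9 genes of heme and iron handling listed beside HMOX1, 6 were lower and 1 higher in MB468 at 12 h (median −0.62), with the largest fall for BLVRB (−1.59 ± 0.08), a biliverdin reductase, and 6 were lower in MB468res-R8 (median −0.30), with the largest for SLC48A1 (−1.05 ± 0.09), a heme transporter. Of 4 genes of superoxide and peroxide removal, 3 were lower in MB468, CAT the most (−1.24 ± 0.04), and 2 in MB468res-R8, while the mitochondrial SOD2 was higher in both lines (0.17 ± 0.04 in each). SOD3, among the lower genes in both lines, had a mean of only 0.84 CPM. Of 19 genes of carbonyl, quinone, and xenobiotic detoxification listed beside NQO1, 12 were lower and 4 higher in MB468 (median −0.30), and 11 lower and 2 higher in MB468res-R8 (median −0.46). AKR1C3, an aldo-keto reductase, had the largest fall in both lines (−1.93 ± 0.09 and −1.76 ± 0.09), and its reads could be split with the near-identical AKR1C genes.

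A list of 6 genes was followed beside NQO1, with AHR, ARNT, AHRR, CYP1A1, CYP1B1, and TIPARP. ARNT is the partner of AHR, the aryl hydrocarbon receptor, of which NQO1 is also a target. CYP1A1, its most responsive target, dropped from 3306 ± 143 to 281 ± 34.7 normalized counts at 0.5 h in MB468 (−3.58 ± 0.08, adjusted p = 1.65e-27) and from 4936 ± 470 to 879 ± 80.9 in MB468res-R8 (−2.49 ± 0.07, adjusted p = 5.11e-25). It stood at 1058 ± 37.9 and 2264 ± 62.2 at 2 h and at 370 ± 29.5 and 172 ± 15.6 at 12 h. Over the 6 genes 3 were lower and 2 higher in MB468 at 0.5 h (median −0.53), and 4 lower and 1 higher in MB468res-R8 (median −0.54), against 34.1 and 33.7% of all genes called in either direction. The higher ones were AHR (0.20) and ARNT (0.32) in MB468 and ARNT (0.30) in MB468res-R8, where AHR was lower (−0.12). CYP1A1, CYP1B1 (−1.41 in MB468 and −1.07 in MB468res-R8), and TIPARP (−1.19 and −0.62) were lower in both lines. AHRR was not called in either. At 12 h, when 70.6 and 61.7% of all genes were called, 5 were lower in MB468 (median −0.83) and 4 in MB468res-R8 (median −1.09), and none was higher. Whether the falls in the set at 0.5 h have a part in common with that of CYP1A1 was not tested.

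**Figure D4:**
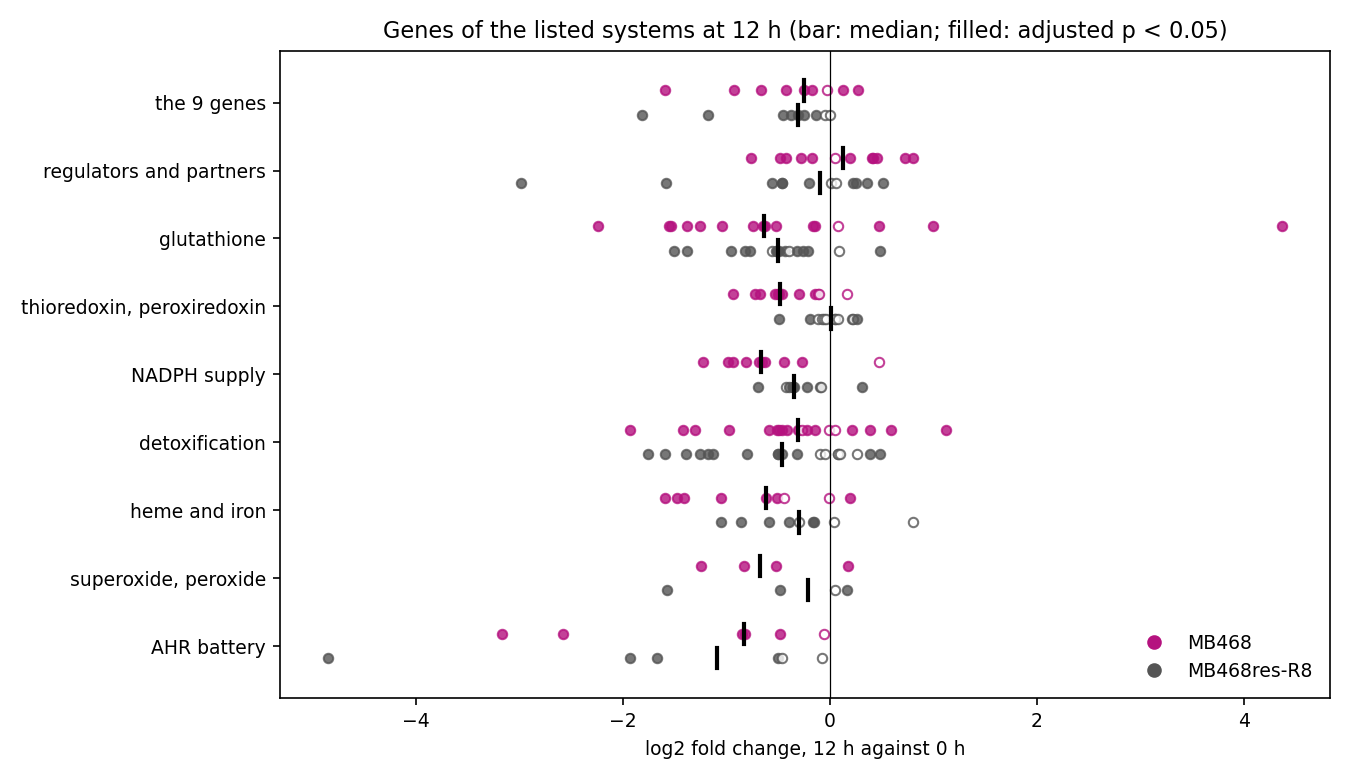
Log2 fold changes at 12 h against 0 h (x axis) of the 9 genes and of the genes in 8 lists (y axis) in both lines, with a point per gene, filled where the adjusted p is under 0.05, and a bar at the median. The medians of the thioredoxin list sit at −0.48 in MB468 and 0.01 in MB468res-R8, and CHAC1 stands alone at 4.37 in MB468.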

How the data were processed

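Poly(A)-selected RNA with added spike-in RNAs was sequenced as single reads of 100 bp. Per the labels, the authors used HISAT2 2.1.0 for alignment to GRCh38/hg38 and featureCounts (Subread 1.5.3) for counts per gene. The release of the annotation is not given in the sources used here. The authors deposited raw counts for 26737 entries and 24 libraries, which were used as deposited. A second deposited table holds DESeq2-normalized counts and another the authors' own fold changes, statistics, and p-values. Neither was used.

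The 92 spike-ins and 4 rows of repeated symbols were left out. In R 4.3.3, edgeR 4.0.16 (filterByExpr with a minimum count of 10 and a minimum total of 15, TMM, robust quasi-likelihood F test) fitted 1 mean per group over 24 libraries and gave 13 comparisons, with Benjamini-Hochberg adjustment across the 14739 genes tested. CPM are counts scaled by the TMM effective library size. For likeness, log2 CPM (prior count 2) were used. The genes and lists were chosen with earlier results of these data known. From each list, genes are named as the largest called rise and fall with a mean of at least 1 CPM, and KEAP1, COL1A1 and single levels of CHAC1 and CYP1A1 at other times were added after their values were seen. The counts and medians over a list include genes under 1 CPM. The code of the fit was checked on simulated counts with the gene means and library totals of these data. The simulation gave every gene the same dispersion and changed few genes, so it does not measure how accurate the calls here are. The alternatives were other scalings (size factors of DESeq2, totals of the spike-ins, a factor estimated from them), other filters (none, or 10 counts in every library), another tool (Wald test of DESeq2 1.42.0), fits restricted to the groups compared, a block for the replicate number, a stricter threshold (0.01), and leaving out each library.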

Additional observations from a re-analysis of the deposited data

Results flagged for a closer look

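The responses of the lines differed, by the test of the difference itself (MB468 response subtracted from the MB468res-R8 response, in edgeR), for TXNRD1 at 0.5 h (0.2267 on the log2 scale). At 2 h they differed for SRXN1 (0.4326) and OSGIN1 (0.4934). At 12 h they differed for ME1 (0.5531), GCLM (0.5286), and NQO1 (0.2075) with the higher value in MB468res-R8, and for OSGIN1 (−0.7463), NFE2L2 (−0.42), TXNRD1 (−0.373), and SRXN1 (−0.2634) with the lower one. SRXN1, TXNRD1, and OSGIN1 thus had differences of opposite sign at the early and the late time with TMM scaling. With spike-in totals OSGIN1 alone kept both calls, at 2 h (0.85, adjusted p = 0.0019) and 12 h (−0.54, adjusted p = 0.0212). TXNRD1 at 0.5 h (adjusted p = 0.279) and 12 h (adjusted p = 0.499) and SRXN1 at 12 h (adjusted p = 0.872) were not called. The early call was also lost without 10 of the 12 libraries in turn for TXNRD1 and without 3 of the 12 for OSGIN1. Groups of 3 are too small for a test of single samples that stand apart.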

How the results depend on the processing

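The 13 counts of called genes were the same within 1.5 times under most alternatives. At 0.5 h the difference between the lines went from 1 gene to 0 with DESeq2's size factors, spike-in totals, at least 10 counts in every library, or an adjusted p of 0.01, and to 2 with no filter. In MB468 at 2 h the count went from 5 to 8 with spike-in totals, 3 with a spike-in factor as covariate, and 2 at an adjusted p of 0.01. With spike-in totals it went from 7 to 2 in MB468res-R8 at 0.5 h, from 7 to 4 there at 12 h, and from 7 to 4 for the difference at 12 h. The genes whose calls were lost within MB468res-R8 kept the sign of their values, such as TXNRD1 with −0.32 at 0.5 h and −0.24 at 12 h. The difference at 2 h went from 2 to 1 at an adjusted p of 0.01 and in the fit to the groups compared. Spike-in totals turned the sign of several values in MB468, including 4 called with TMM or with spike-in totals but not with both. NFE2L2 at 2 h against 0 h, not called with TMM, was called lower at −0.3445, TXNRD1 at 12 h against 0 h moved to −0.07839, and between 2 and 12 h NFE2L2 moved to 0.1055 and NQO1 to 0.09251. In these cases the cause was not tested.

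Leaving out each library in turn gave 5 to 6 genes (MB468res-R8 against MB468 at 0 h), 7 to 8 (at 12 h), 6 to 8 (MB468 at 0.5 h), 2 to 5 (2 h), 7 to 8 (12 h), 5 to 6 (12 h against 2 h), 5 to 7 (MB468res-R8 at 0.5 h), 0 (2 h), 6 to 7 (12 h), 6 to 7 (12 h against 2 h), and 0 to 1, 1 to 2, and 7 to 8 for the differences at 0.5, 2, and 12 h. With the replicate number as a block all 13 counts were unchanged (for example 5 of 9 genes in MB468 at 2 h). The labels do not say what the number marks, and in no comparison did every pair of same-numbered libraries correlate over 0.1. The 3 libraries per group limit the precision of small changes, and OSGIN1, with as few as 245 reads in a library, had the lowest depth.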
